A study of Mus musculus with 8 samples.

Results

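The CDK inhibitor genes are the 7 genes whose proteins bind cyclin-dependent kinases (CDKs) and hold them inactive. They were taken by gene name (*Cdkn1a*, *Cdkn1b*, *Cdkn1c*, *Cdkn2a*, *Cdkn2b*, *Cdkn2c* and *Cdkn2d*) from a table of 17167 genes. All 7 were listed, and 6 had enough counts to be tested. The data are RNA-seq of cultured undifferentiated spermatogonia (Aundiff), the testis population that includes the spermatogonial stem cells. AGX51-treated cells received 80 µM AGX51, an inhibitor of all 4 ID proteins, for 20 h, and vehicle-treated cells received DMSO alone. Cultures came from 4 separate wild-type adult mice aged 6 to 8 weeks, and each gave 1 AGX51 library and 1 vehicle library. The sample labels give the strain as CBA/J, the supplemental methods as C57BL/6J, and the labels' treatment text gives the dose as 80 mM, while their design text and the study give 80 µM. CD9+ testis cells had been grown on mitotically inactivated fibroblast feeders in both groups, and feeders were depleted by attachment to plastic before the 4 days of growth on Geltrex that preceded treatment. The question put by the design is what loss of ID function does to these cells, and the CDK inhibitors are the part of that question concerned with stopping division.

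CDK inhibitors fall into 2 families. The INK4 proteins, p16INK4A (from *Cdkn2a*), p15INK4B (*Cdkn2b*), p18INK4C (*Cdkn2c*) and p19INK4D (*Cdkn2d*), bind CDK4 and CDK6 and keep them from D-type cyclins. The CIP/KIP proteins, p21 (*Cdkn1a*), p27 (*Cdkn1b*) and p57 (*Cdkn1c*), bind cyclin-CDK complexes more widely, including cyclin E-CDK2. Both brake the phosphorylation of RB that opens the way into S phase. ID proteins have no DNA-binding domain and hold E-proteins such as TCF3 in inactive pairs, and free E-proteins can bind E-boxes (CANNTG) and raise *Cdkn1a*, *Cdkn2a* and *Cdkn2b* in cell types studied before.

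*Cdkn2a* is unusual among these genes because it makes a pair of unrelated proteins. Its transcripts Cdkn2a-201 (p16INK4A) and Cdkn2a-202 (ARF, which acts on p53 through MDM2) begin at first exons of their own and splice into the same exon 2, which is read in different frames. The joins are printed to show what a count per gene can and cannot tell apart, with the last 30 bases of each first exon in lower case and the first 30 bases of exon 2 in capitals.
Cdkn2a-201: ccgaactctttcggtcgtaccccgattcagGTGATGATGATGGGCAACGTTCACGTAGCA
Cdkn2a-202: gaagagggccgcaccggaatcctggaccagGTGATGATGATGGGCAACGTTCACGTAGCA
The capital letters are the same in both. On GRCm38 (GENCODE M21), the first exon of Cdkn2a-201 is at chr4:89281986-89282192 and that of Cdkn2a-202 at chr4:89294334-89294653, both on the minus strand, and exon 2 is at chr4:89276645-89276985. The transcripts are 852 and 895 bases long and share 575 of them. Counts were deposited per gene, so every *Cdkn2a* value given here is the sum of p16INK4A and ARF transcripts.

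The stretches before the transcription starts are shown for the gene that was called, for both starts of *Cdkn2a*, and for the members whose windows held an E-box. They are the 250 bases ahead of the start in RefSeq (GRCm38.p6), 5′ to 3′ on the gene's strand, with E-boxes in capitals. RefSeq starts can differ from those of GENCODE. The Cdkn2a-202 and *Cdkn2b* windows include the first bases of the GENCODE transcripts, which start at chr4:89294653 and chr4:89311039. RefSeq windows were found for 6 of the 7 members, 9 windows in all.
Cdkn1b, chr6:134920151-134920400, plus strand: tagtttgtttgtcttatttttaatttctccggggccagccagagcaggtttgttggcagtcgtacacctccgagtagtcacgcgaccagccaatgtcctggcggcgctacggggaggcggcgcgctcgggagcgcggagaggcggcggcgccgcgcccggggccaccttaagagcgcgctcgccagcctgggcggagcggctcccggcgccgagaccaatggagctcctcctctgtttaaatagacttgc
Cdkn2a-201 start, chr4:89282193-89282442, minus strand: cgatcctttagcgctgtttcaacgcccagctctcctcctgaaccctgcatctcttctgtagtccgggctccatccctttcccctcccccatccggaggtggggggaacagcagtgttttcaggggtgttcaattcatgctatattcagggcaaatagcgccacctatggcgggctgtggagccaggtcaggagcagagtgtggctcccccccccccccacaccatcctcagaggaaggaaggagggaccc
Cdkn2a-202 start, chr4:89294620-89294869, minus strand: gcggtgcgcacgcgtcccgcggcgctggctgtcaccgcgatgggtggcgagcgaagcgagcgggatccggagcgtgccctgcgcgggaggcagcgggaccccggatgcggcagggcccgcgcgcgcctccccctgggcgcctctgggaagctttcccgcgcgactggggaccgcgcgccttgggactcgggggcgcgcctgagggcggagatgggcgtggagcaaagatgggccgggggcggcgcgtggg
Cdkn2b, chr4:89311033-89311282, minus strand: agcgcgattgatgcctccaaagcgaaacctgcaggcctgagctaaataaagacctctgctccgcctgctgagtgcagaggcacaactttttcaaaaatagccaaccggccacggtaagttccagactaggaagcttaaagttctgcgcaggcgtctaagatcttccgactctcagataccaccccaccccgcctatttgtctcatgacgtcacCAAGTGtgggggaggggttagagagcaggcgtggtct
Cdkn1a-201 start, chr17:29093519-29093768, plus strand: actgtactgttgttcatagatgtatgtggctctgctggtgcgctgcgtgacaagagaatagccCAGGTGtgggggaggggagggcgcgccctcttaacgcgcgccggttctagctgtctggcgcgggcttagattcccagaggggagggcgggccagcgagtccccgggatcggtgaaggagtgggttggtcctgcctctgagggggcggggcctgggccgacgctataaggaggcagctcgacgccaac
The E-box CANNTG, searched on both strands, was present in 66.2% of the 32851 windows of all genes. Among the members only the windows of *Cdkn2b* and of the Cdkn1a-201 start held one, and that of *Cdkn1a* was the form CACCTG on the minus strand (17.2% of all windows). No E-box was found in the window of *Cdkn1b*, in either window of *Cdkn2a*, or in those of *Cdkn2c* and *Cdkn2d*. Sequence outside these 250 bases was not searched, so E-boxes elsewhere at these genes are not covered. The E-box form CAGCTG (13% of all windows), the FOXO motif GTAAACA (3.17%) and the E2F motif TTCGCGC (1.28%) matched none of the 9 windows. GC content of the *Cdkn2a* windows was 60% at the p16INK4A start and 78.4% at the ARF start, against a median of 52.4% over all windows.

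Libraries held 4303318 to 8441399 counts with AGX51 and 8330176 to 9586105 with vehicle, and in each of the 4 cultures the AGX51 library was the smaller. Values are CPM as deposited, that is, counts scaled to a common library total. Changes are log2 fold changes of AGX51 over vehicle from edgeR's quasi-likelihood test. The fit did not pair libraries by culture unless a block is named. Called genes are those that passed the study's thresholds, 0.05 for the Benjamini-Hochberg adjusted p (over 14428 genes) and 1.5 for the fold change. Gene lists were chosen with earlier results of these data known, so a list's share beside that of all genes is a description. All 15 spermatogonial markers looked for were listed, and their summed level was 1141 to 1461 CPM with AGX51 and 1876 to 2261 CPM with vehicle. Among them 0 were called higher and 5 lower (33.3%, against 18.3% of all genes): *Gfra1*, *Dazl*, *Etv5*, *Nanos3* and *Cdh1*. *Dazl* had the highest level of the 15, at 338.9 ± 57.7 CPM with AGX51 and 833.1 ± 99.3 CPM with vehicle. *Gfra1* came under 1.5-fold (-0.45) in a fit with a fibroblast covariate. *Sall4* (-0.15) and *Ddx4* (-0.18) were not called. *Zbtb16* was lower, under 1.5-fold (-0.49, edgeR adjusted p = 0.0033), and was called lower without culture 3 (-0.60). *Uchl1* was higher, under 1.5-fold (0.47, edgeR adjusted p = 0.0011). Fibroblast markers were also present (25 of 26 listed, *Ccn2* was not), at a summed 5551 to 10260 CPM with AGX51 and 4381 to 7348 CPM with vehicle. Of these 25, 8 were called higher and 0 lower (32%, against 18.3% of all genes). With libraries left out, the number called higher lay between 1 (without culture 3) and 13 (without vehicle library 4). *S100a4* (-0.89, edgeR adjusted p = 0.142) was called lower without AGX51 library 4 or culture 4. It was also called lower by limma-voom (-0.94, adjusted p = 0.029), with culture as a block and without robust estimation. *Thbs1*, *Cald1*, *Loxl1* and *Pdgfra*, not called here, were lower with AGX51 in 4 of 4 cultures as well. Sertoli markers summed to 25.94 to 43.12 CPM with AGX51 and 31.45 to 43.71 CPM with vehicle, and 0 of the 3 tested were called. Of the macrophage list only *Cd68* was listed, at 24.99 ± 2.26 CPM with AGX51 and 14.8 ± 2.96 CPM with vehicle, and it was called higher (0.85, edgeR adjusted p = 0.0012). Its groups did not overlap, as with 10.6% of all tested genes in this direction. Of the Leydig list only *Star* was listed, at 4.70 ± 1.06 CPM with AGX51 and 3.01 ± 0.36 CPM with vehicle, called higher (0.75, adjusted p = 0.0389) but not when any library other than AGX51 library 2 was left out (0.60 to 0.82). The endothelial markers tested were *Kdr*, at 0.98 ± 0.42 CPM with AGX51 and 5.88 ± 1.44 CPM with vehicle and called lower (-2.57, adjusted p = 7.97e-05), and *Pecam1*, which was not called. The part of these cell types in the members' values was not tested. Genes looked for and not among those listed included *Amh*, *Gata4*, *Cyp17a1*, *Insl3*, *Csf1r*, *Ptprc* and *Tie1*. In bulk RNA, a change in the share of a cell type and a change of RNA per cell cannot be told apart.

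Of the 6 tested CDK inhibitor genes, 1 was called higher with AGX51, *Cdkn1b*, and none was called lower. Over all 14428 genes, 18.3% were called, 8.41% higher and 9.86% lower, so the members' count is near the background. Their median log2 fold change was 0.24, against 0.00 for all tested genes. *Cdkn2a* had the largest fitted fold change and missed the threshold in this fit, but was called by other tools and without culture 4. Levels of *Cdkn1a*, *Cdkn1c* and *Cdkn2b* had intervals that spanned no change.

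**Figure D1:**
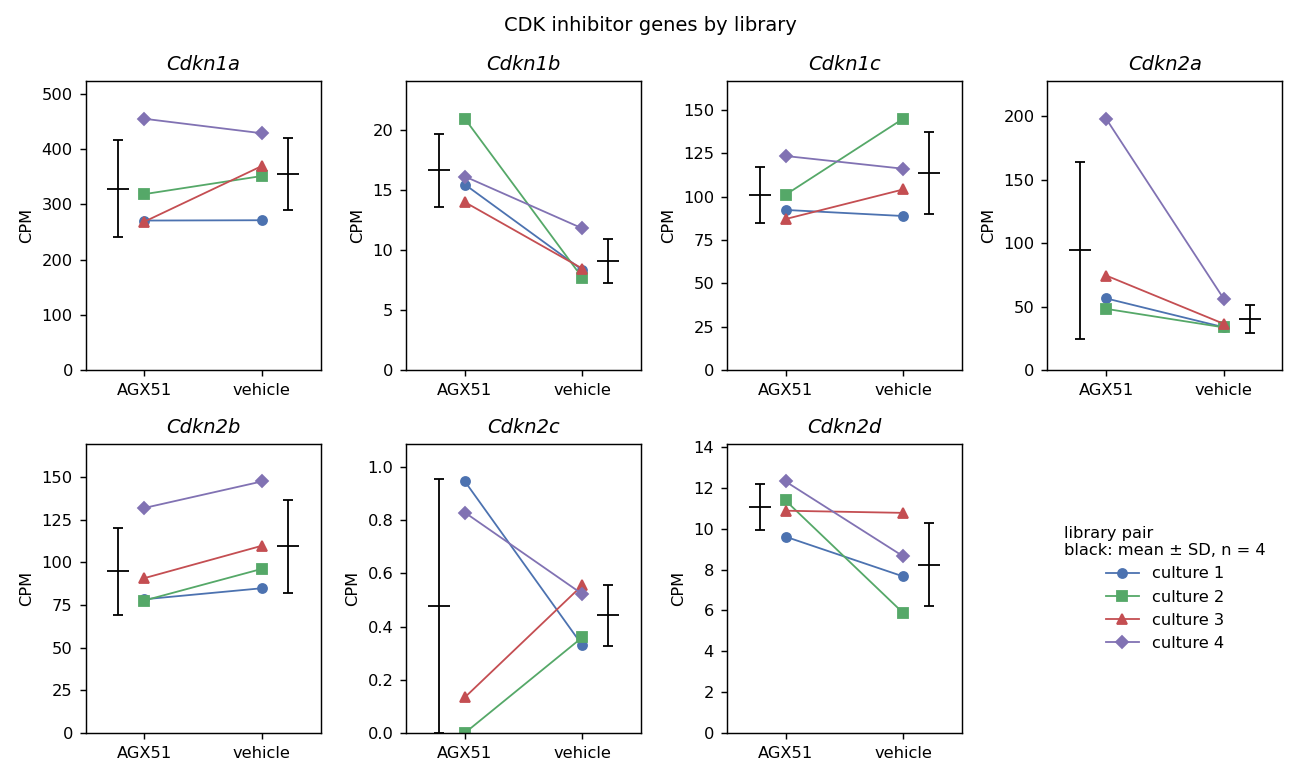
Level of the 7 CDK inhibitor genes (CPM, linear axes from 0) in the 4 AGX51 and 4 vehicle libraries, with a line joining the libraries of a culture and the mean ± SD of each group in black. *Cdkn1b* is the gene whose groups do not overlap, *Cdkn2a* is higher with AGX51 in every culture and highest by far in culture 4 (198 CPM), and *Cdkn2b* is lower with AGX51 in every culture by a small margin.

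*Cdkn1b* encodes p27, which holds cyclin E-CDK2 in check and is removed by the ubiquitin ligase SCF-SKP2 when cells enter the cycle. The gene lies at chr6:134920401-134925513 on the plus strand. It was at 15.4, 20.9, 14.0 and 16.1 CPM in AGX51 libraries 1 to 4, against 8.33, 7.68, 8.45 and 11.8 CPM in vehicle libraries 1 to 4. Every AGX51 library was above every vehicle library, a separation in this direction that 10.6% of all tested genes showed. Averages were 16.6 ± 3.00 CPM with AGX51 and 9.06 ± 1.85 CPM with vehicle (SD, n = 4 each). The fitted log2 fold change was 0.93 (standard error 0.18, 95% interval 0.55 to 1.31, edgeR adjusted p = 0.00145), a 1.90-fold rise. Within cultures 1 to 4 the AGX51 level was 1.85, 2.72, 1.66 and 1.37 times the vehicle level, so the smallest rise was in culture 4. These levels rest on 90 to 136 counts per AGX51 library and 64 to 113 per vehicle library, and no annotated gene overlaps *Cdkn1b*. The call was kept in every alternative apart from a threshold of 2-fold.

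Nearby genes on chromosome 6 were also called. The nearest listed gene on the downstream side is *Lockd*, a long intergenic RNA that begins 3579 bases beyond the end of *Cdkn1b* on the same strand. *Lockd* was at 14.5, 11.9, 9.68 and 7.35 CPM with AGX51, against 6.03, 5.28, 4.34 and 6.68 CPM with vehicle. The groups did not overlap, as with 10.6% of all tested genes in this direction. *Lockd* rose by 1.004 on the log2 scale (standard error 0.22, edgeR adjusted p = 0.00374). On the other side, 19293 bases away, the antisense RNA *2810454H06Rik* also rose (11.5 ± 1.94 CPM with AGX51, 6.41 ± 0.29 CPM with vehicle, log2 fold change 0.91, adjusted p = 0.00174). After this was seen, all listed genes within 200 kb of *Cdkn1b* were read out. Of the 8 tested there, 4 were called higher and 1 lower, against 8.41% and 9.86% of all genes. The other genes called higher were *Crebl2* (19.5 ± 4.12 CPM with AGX51, 11.8 ± 0.59 CPM with vehicle, log2 fold change 0.79), a relative of CREB, and *Dusp16*, a phosphatase that acts on JNK and p38, 127776 bases away. *Dusp16* stood at 56.4 to 68.8 CPM with AGX51 and 17.4 to 24.3 CPM with vehicle, a log2 fold change of 1.67. *Gpr19*, which lies on the opposite strand and overlaps *2810454H06Rik* at one end, was not called (-0.19, edgeR adjusted p = 0.438), and whether counting used strand, which would tell their reads apart there, is not stated. *Apold1* was lower (-1.003, adjusted p = 0.0447). The window was chosen after values were seen, so these counts are a description.

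Transcripts for 2 of the ligase subunits that lead to p27 destruction were lower. *Skp2*, the subunit that recognises p27 for destruction, was at 19.5, 12.5, 16.9 and 12.0 CPM with AGX51, against 31.9, 28.7, 32.6 and 30.4 CPM with vehicle. Its groups did not overlap, as with 17.9% of all genes in this direction, and it fell by 0.94 on the log2 scale (standard error 0.16, edgeR adjusted p = 0.000627). *Rnf123*, a subunit of the KPC ligase that removes p27 in G1, was at 5.19 ± 0.80 CPM with AGX51 and 9.57 ± 0.80 CPM with vehicle, and fell by 0.78 (adjusted p = 0.00769). Without culture 1 it had -0.66 (adjusted p = 0.0571). Of 12 tested genes of p21 and p27 turnover, 0 were higher and these 2 lower (16.7%, against 18.3% of all genes), with a median log2 fold change of -0.14. *Cks1b*, the partner of SKP2 on p27, had -0.27 (adjusted p = 0.0765), and *Ubac1*, the partner of RNF123, had -0.05 (adjusted p = 0.805). Among the other genes of this list, *Dtl*, which directs p21 to the CUL4 ligase, had 0.46 and *Cul4a* had -0.36, both with an adjusted p under 0.05 and under 1.5-fold. Protein levels were not measured in these data.

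*Cdkn2a*, at chr4:89274471-89294653 on the minus strand, was at 56.6, 48.3, 74.6 and 198 CPM in AGX51 libraries 1 to 4, against 33.9, 33.7, 36.6 and 56.3 CPM in vehicle libraries 1 to 4. Culture 4 was the highest in both groups, and its vehicle library stood above AGX51 library 2, so the groups overlap. Within each culture AGX51 was the higher, at 1.67, 1.43, 2.04 and 3.52 times vehicle. Averages were 94.4 ± 69.98 CPM with AGX51 and 40.1 ± 10.9 CPM with vehicle (SD, n = 4 each), a coefficient of variation of 74.1% with AGX51 and 27.1% with vehicle. The fitted log2 fold change was 1.35 (standard error 0.54, 95% interval 0.05 to 2.65, edgeR adjusted p = 0.109), so the gene was not called.

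The call on *Cdkn2a* differed between fits, while its direction stayed the same in each alternative run. Limma-voom, the test of the study, called it (log2 fold change 1.14, adjusted p = 0.0349), as did DESeq2 (1.35, adjusted p = 0.047) and edgeR without robust estimation of the spread (1.35, adjusted p = 0.0184). These settings called 8.39%, 7.91% and 8.57% of all genes higher. With culture as a block, the edgeR value was 1.16 (adjusted p = 0.066), and limma-voom gave 1.195 (adjusted p = 2.73e-06), in a fit that called 9.89% of all genes higher. Leaving out both libraries of culture 4 gave a smaller but tighter value, 0.87 with a standard error of 0.17 (edgeR adjusted p = 0.00183), and called the gene, as it did 8.02% of all genes. The 3 remaining cultures then stood at 48.3 to 74.6 CPM with AGX51 and 33.7 to 36.6 CPM with vehicle. Without AGX51 library 4 alone the value was 0.65 (edgeR adjusted p = 0.0712). Over 28 alternatives the log2 fold change lay between 0.41 and 1.59 and the adjusted p between 1.75e-07 and 0.265, and 7 of the 28 called the gene higher.

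**Figure D2:**
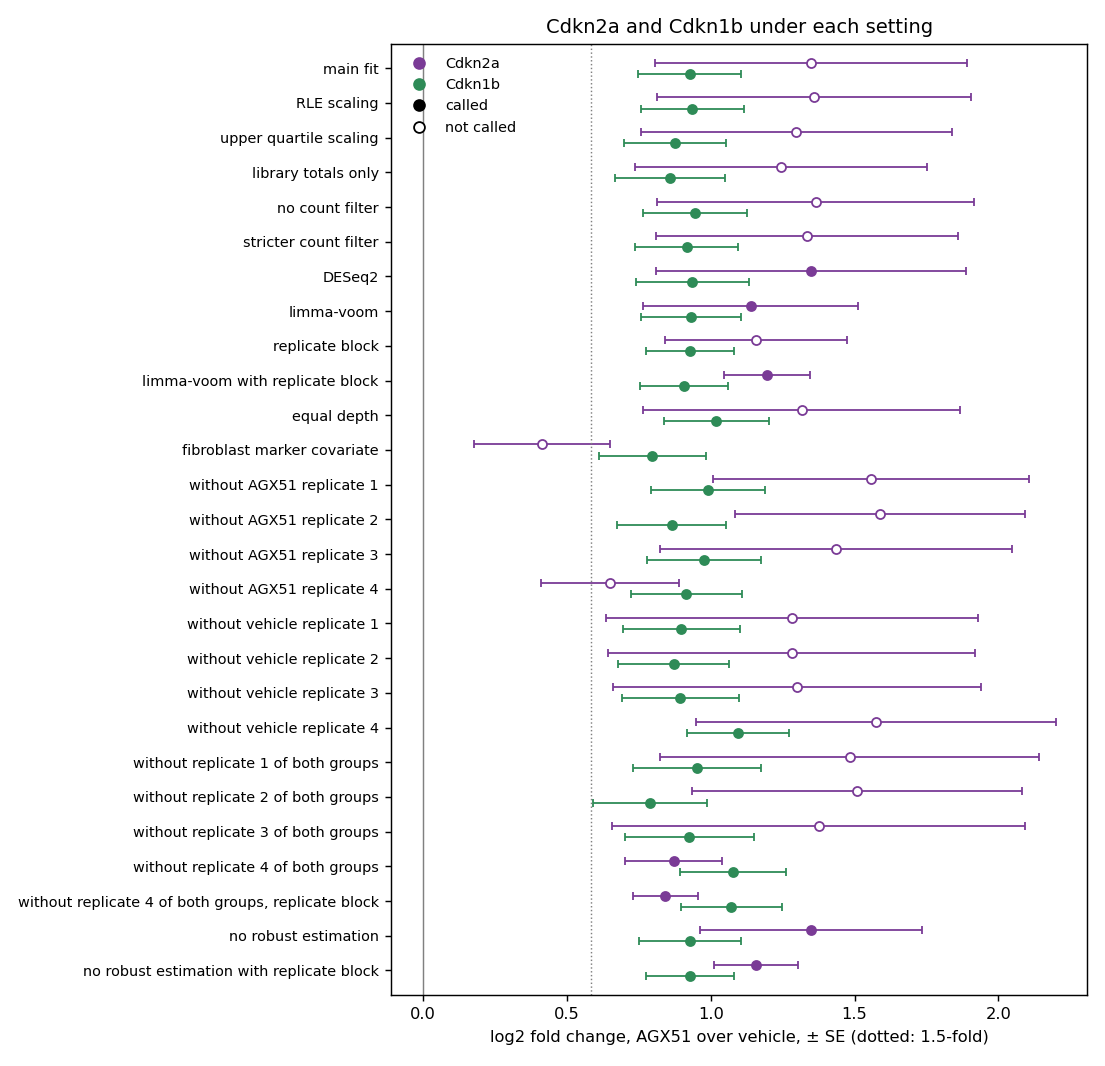
Log2 fold change of *Cdkn2a* (purple) and *Cdkn1b* (green), AGX51 over vehicle, ± SE, in the main edgeR fit and under each alternative that refits or leaves out libraries. Filled points are called at an adjusted p under 0.05 and 1.5-fold, open points are not; *Cdkn1b* is filled in every line, and *Cdkn2a* stays to the right of 0 throughout but is filled in 7 lines.

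Taken as a mean, fibroblast markers moved along with *Cdkn2a* across libraries. Their mean log2 level was 6.35, 6.59, 6.69 and 7.34 in AGX51 libraries 1 to 4, against 6.05, 6.29, 6.28 and 6.76 in vehicle libraries 1 to 4. It was higher with AGX51 in 4 of 4 cultures and highest in culture 4 in both groups, as *Cdkn2a* was. Single markers did not all rise with AGX51, and *S100a4* had -0.89 (edgeR adjusted p = 0.142). With this mean as a covariate the log2 fold change of *Cdkn2a* was 0.41 (standard error 0.24, edgeR adjusted p = 0.229). That of *Cdkn1b* was 0.80 (edgeR adjusted p = 0.00319), and *Cdkn1b* stayed called. *Cdkn1a* and *Cdkn2b*, which had no call in the main fit, went to -0.41 (adjusted p = 0.00634) and -0.54 (adjusted p = 0.000546) with the covariate, both under 1.5-fold. The mean was itself higher with AGX51, so the covariate and the treatment overlap in these fits, and which cells carried the *Cdkn2a* transcripts was not tested.

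**Figure D3:**
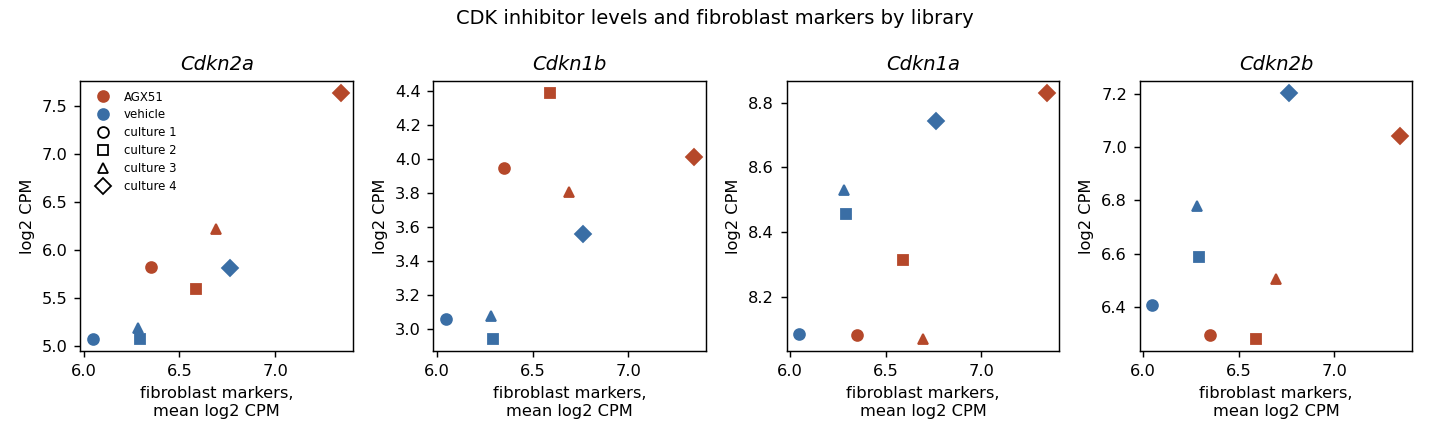
Log2 CPM of *Cdkn2a*, *Cdkn1b*, *Cdkn1a* and *Cdkn2b* (vertical axes, scales differ and do not start at 0) against the mean log2 CPM of 25 fibroblast markers (horizontal axes), AGX51 libraries in red and vehicle libraries in blue, with a symbol for each culture. Culture 4 (diamonds) lies at the right within each group; *Cdkn2a* is highest there (198 CPM with AGX51), while *Cdkn1b* separates the groups in height at all marker levels.

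*Cdkn2b*, the neighbour of *Cdkn2a*, encodes p15INK4B, an inhibitor induced by TGF-beta in epithelial cells. It lies 11646 bases away at chr4:89306299-89311039. Its levels were 78.3, 77.6, 90.7 and 132 CPM with AGX51, against 84.8, 96.2, 109.7 and 147.4 CPM with vehicle. Each AGX51 library was a little below the vehicle library of its culture (0.92, 0.81, 0.83 and 0.89 times), and culture 4 was again the highest in both groups. The fitted log2 fold change was -0.12 (standard error 0.23, 95% interval -0.63 to 0.40, edgeR adjusted p = 0.736). That fit is unpaired, so its standard error includes differences between cultures. With culture as a block the value was -0.14 (standard error 0.08, adjusted p = 0.144), and the gene was not called in either fit. In each culture the direction was the opposite of that of *Cdkn2a*.

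Reading the neighbours against each other within a library removes the scaling between libraries. *Cdkn2a* had 0.722, 0.623, 0.822 and 1.5 counts for each *Cdkn2b* count in AGX51 libraries 1 to 4, against 0.399, 0.351, 0.333 and 0.382 in vehicle libraries 1 to 4. Vehicle ratios were close to each other, culture 4 included, and all AGX51 ratios were above them. The mean difference of the log2 ratio was 1.24 (0.83 to 1.98 over the 4 cultures). Against *Cdkn1a* the ratio was 0.209, 0.152, 0.278 and 0.436 with AGX51, and 0.0961 to 0.131 with vehicle. These ratios were formed after the levels had been seen and carry no test. Among the other listed genes within 200 kb of *Cdkn2a*, *Mtap*, an enzyme of methionine salvage, was level (77.8 ± 3.37 CPM with AGX51, 78.4 ± 4.60 CPM with vehicle, log2 fold change 0.06), and of 4 tested genes 0 were called higher and 1, *Gm12603*, lower. *Gm12606*, which ends 1068 bases from *Cdkn2a*, stayed at or under 2.30 CPM in every library and was not tested.

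**Figure D4:**
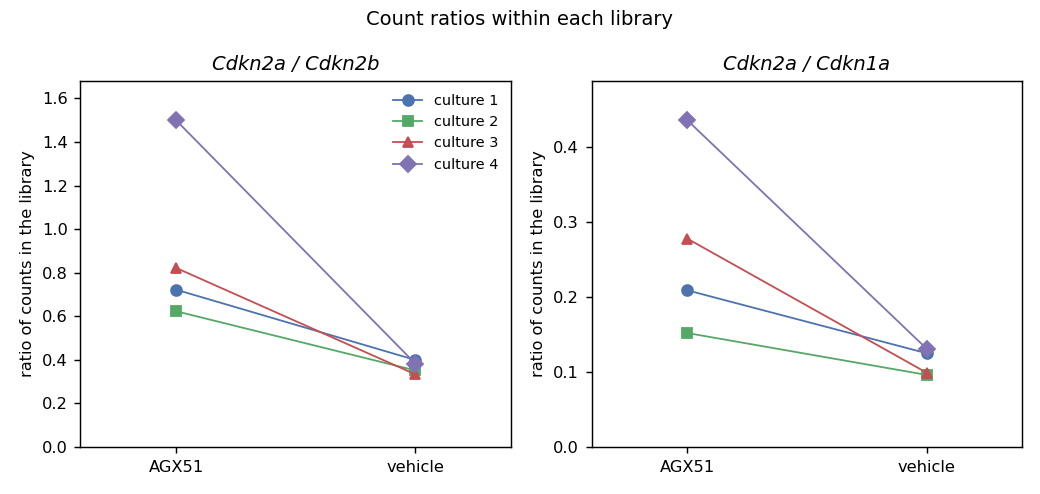
Counts of *Cdkn2a* divided by counts of *Cdkn2b* (left) and of *Cdkn1a* (right) in each library, linear axes from 0, with a line joining the AGX51 and vehicle libraries of a culture. Vehicle libraries lie between 0.333 and 0.399 on the left and between 0.0961 and 0.131 on the right, and every AGX51 library lies above them.

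The remaining INK4 genes were low. *Cdkn2d* encodes p19INK4D, which together with p18INK4C is known in mouse for its part in the exit of male germ cells from mitosis, and lies at chr9:21288410-21291407. It was at 9.61, 11.4, 10.9 and 12.3 CPM with AGX51, against 7.67, 5.88, 10.8 and 8.66 CPM with vehicle. AGX51 was higher in 4 of 4 cultures, by 1% in culture 3 (a ratio of 1.01) and by a ratio of 1.94 in culture 2. The log2 fold change was 0.50 (standard error 0.20, 95% interval 0.08 to 0.93, edgeR adjusted p = 0.0678), which was not called. Without vehicle library 3 it was called (0.65, adjusted p = 0.0409), and with culture as a block the adjusted p was 0.0135 at 1.42-fold, under the fold threshold. *Cdkn2c*, which encodes p18INK4C and lies at chr4:109660876-109667189, gave 6, 0, 1 and 7 counts in AGX51 libraries 1 to 4 and 3, 3, 5 and 5 counts in vehicle libraries 1 to 4. At 0.48 ± 0.48 CPM with AGX51 and 0.44 ± 0.11 CPM with vehicle it was too low for the fit (exact permutation test over the 8 libraries, two-sided, p = 0.857), and a difference was not detectable at this depth.

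*Cdkn1a* and *Cdkn1c* are the abundant CIP/KIP genes of these cultures. *Cdkn1a* encodes p21, the classical p53 target, and lies at chr17:29090976-29100727. It was at 271, 318, 269 and 455 CPM in AGX51 libraries, against 271, 351, 369 and 428 CPM in vehicle libraries. It was higher with AGX51 in 1 culture and lower in 3, and the fit gave -0.03 (standard error 0.19, 95% interval -0.45 to 0.39, edgeR adjusted p = 0.920). *Cdkn1c*, an imprinted gene for p57 at chr7:143458339-143461050, was at 92.4, 101.1, 87.1 and 123 CPM with AGX51, against 88.9, 144.9, 104.1 and 116 CPM with vehicle. Its log2 fold change was -0.09 (standard error 0.15, 95% interval -0.42 to 0.24, adjusted p = 0.703). For both genes the interval leaves out a 1.5-fold change in either direction. Exons of both share bases with an antisense gene that the table does not list (273 bases for *Cdkn1a*, 625 for *Cdkn1c*), and whether counting used strand is not stated.

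**Figure D5:**
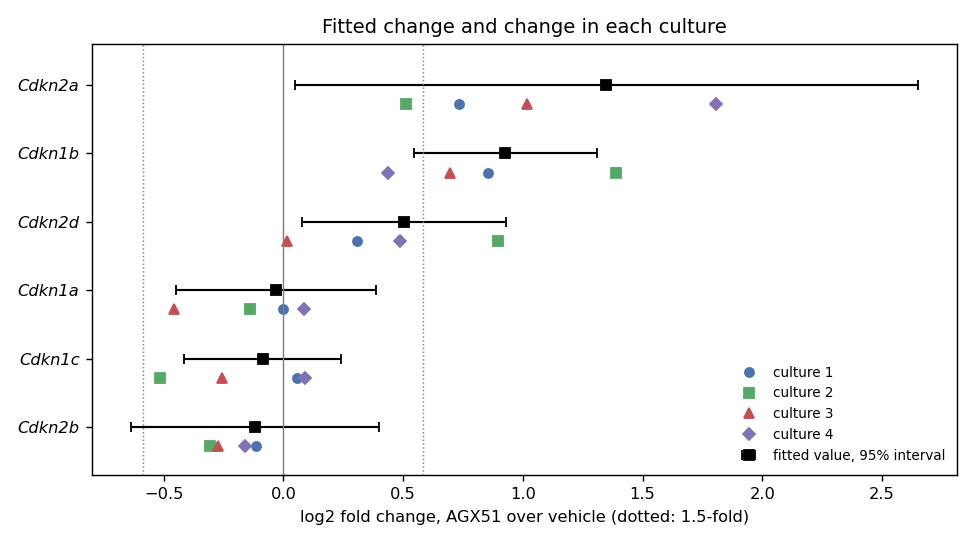
Fitted log2 fold change of the 6 tested genes (black squares, with 95% intervals) and the log2 difference of CPM within each culture (coloured symbols), AGX51 over vehicle. *Cdkn2a* has the widest interval (0.05 to 2.65), the 4 cultures of *Cdkn2a*, *Cdkn1b* and *Cdkn2d* lie right of 0, and those of *Cdkn2b* lie left of it.

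Of the 6 tested genes next to the other members, 1 was called (16.7%, against 18.3% of all genes). *Trp53cor1* (lincRNA-p21), beside *Cdkn1a*, had a log2 fold change of 0.47 (edgeR adjusted p = 0.269), and *Kcnq1ot1*, the antisense RNA of the imprinted domain that holds *Cdkn1c*, had 0.01. *Kri1* and *Ap1m2*, on either side of *Cdkn2d*, had -0.09 and 0.07. Around *Cdkn2c*, *Rnf11* was called higher (0.89, adjusted p = 0.00611) at a distance of 176148 bases, and *Faf1* had 0.54 (adjusted p = 0.00129), under 1.5-fold. *Rab44*, *Slc22a18* and *Gm12610* were too low to test.

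Per kilobase of annotated exon, the level with vehicle ran from *Cdkn1a* (99.9 CPM per kb) through *Cdkn2b* (78.8), *Cdkn1c* (55.7), *Cdkn2a* (34.2), *Cdkn2d* (5.24) and *Cdkn1b* (1.99) to *Cdkn2c* (0.16). With AGX51 the order of the means was *Cdkn1a* (92.3), *Cdkn2a* (80.5), *Cdkn2b* (68.1), *Cdkn1c* (49.5), *Cdkn2d* (7.02), *Cdkn1b* (3.65) and *Cdkn2c* (0.18). The ranges of *Cdkn1a*, *Cdkn2b* and *Cdkn2a* overlapped over the 4 AGX51 libraries (75.6 to 128, 55.8 to 94.9 and 41.2 to 169 CPM per kb), and that of *Cdkn1c* (42.7 to 60.5) overlapped the last 2 of these, so that order is not firm. The place of *Cdkn2a* above *Cdkn2b* rested on AGX51 library 4: in the other 3 libraries *Cdkn2a* was at 48.3, 41.2 and 63.6 CPM per kb, below *Cdkn2b* in each (56.4, 55.8 and 65.3), and without library 4 the means were 51.1 and 59.2 CPM per kb. Vehicle ranges of *Cdkn1a* and *Cdkn2b* overlapped too (76.3 to 121 and 61.0 to 106), as did those of *Cdkn2b* and *Cdkn1c* (43.6 to 71.1) and of *Cdkn1c* and *Cdkn2a* (28.8 to 48.1). On this scale *Cdkn2d*, *Cdkn1b* and *Cdkn2c* lay apart from each other and from the rest in both groups. Libraries were primed from the poly(A) end, so values per kilobase depend on where along a transcript its reads fell. Counts then need not scale with exon length, and the order differed in CPM. There *Cdkn1b* (9.06 with vehicle, 16.6 with AGX51) was above *Cdkn2d* (8.25 and 11.05), with overlapping vehicle ranges (7.68 to 11.8 and 5.88 to 10.8). Mean CPM of *Cdkn1c* (113.5 with vehicle, 101.0 with AGX51) was likewise above that of *Cdkn2b* (109.5 and 94.6). Summed over the 7 genes, CDK inhibitor transcripts made up 524, 578, 546 and 937 CPM with AGX51, against 495, 640, 639 and 769 CPM with vehicle. *Cdkn1a* was 48.5% to 55.1% of that sum with AGX51 and 54.8% to 57.7% with vehicle. The called gene, *Cdkn1b*, was thus among the scarcest CDK inhibitor transcripts in both groups.

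Of the genes that CDK inhibitors act on, *Ccnd2*, a D-type cyclin, fell. It was at 980 ± 135 CPM with AGX51 and 1635 ± 134 CPM with vehicle (SD, n = 4 each), a log2 fold change of -0.66 (standard error 0.13, edgeR adjusted p = 0.00201). It was the only one called of 10 tested G1/S cyclins and CDKs (10%, against 18.3% of all genes), and the list's median was -0.25. *Ccne2* had -0.46 and *Cdk2*, the kinase that p27 inhibits, had -0.38, each with an adjusted p under 0.05 and under 1.5-fold. *Cdk4* (-0.05) and *Cdk6* (-0.15), the targets of INK4 proteins, had adjusted p values of 0.773 and 0.546. *Ccna2*, an S-phase cyclin, was at 130.9 ± 32.8 CPM with AGX51 and 101.1 ± 18.5 CPM with vehicle, higher with AGX51 in 4 of 4 cultures but not called (0.44, adjusted p = 0.062), and was called higher with the fibroblast covariate (0.63, adjusted p = 0.00763). Without AGX51 library 1, *Ccnd2* had -0.57, under 1.5-fold, and 0 genes of the list were called lower. *Ccnd1*, another D-type cyclin, was called lower as well without AGX51 library 4 (-0.93, adjusted p = 0.0275), and with culture as a block 2 genes of this list were called lower, in a fit that called 11.4% of all genes lower.

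Further down the pathway, 1 of 12 tested RB and E2F genes was called higher and 3 lower. That is 33.3%, against 18.3% of all genes, with a median of 0.01. *Rbl1*, which encodes the RB relative p107, was at 14.7, 15.8, 14.2 and 12.4 CPM with AGX51, against 4.71, 5.04, 6.34 and 5.63 CPM with vehicle. Its groups did not overlap, as with 10.6% of all tested genes in this direction. The log2 fold change was 1.46 (standard error 0.17, edgeR adjusted p = 3.38e-05). *E2f7* (-1.14) and *E2f8* (-1.18), repressors among the E2Fs and themselves targets of E2F, fell, as did *Tfdp1* (-0.64), a partner of activating E2Fs. *Tfdp1* came under 1.5-fold without AGX51 library 2, vehicle library 1 or culture 1 (-0.58 each). Its relative *Tfdp2* had 0.58 (adjusted p = 0.00422), just under 1.5-fold, and was called higher without AGX51 library 2 (0.62), AGX51 library 4 (0.67), vehicle library 3 (0.70), culture 3 (0.62) or culture 4 (0.61). *Rb1* was at -0.02 (adjusted p = 0.940) and *E2f1* at 0.05 (adjusted p = 0.754).

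Genes known to raise CDK inhibitor transcription moved in part. Of 17 tested, 4 were called higher and 0 lower (23.5%, against 18.3% of all genes, median -0.06), and *Trp73* was not listed. *Smad2* (log2 fold change 0.75, edgeR adjusted p = 4.5e-05), *Klf4* (1.23, 0.0062), *Klf6* (0.72, 0.00957) and *Sp1* (0.61, 0.000883) rose. *Klf6* came under 1.5-fold without AGX51 library 4 (0.56) and with the fibroblast covariate (0.40), and had an adjusted p of 0.0595 without culture 3. *Sp1* came under 1.5-fold without AGX51 library 2 (0.54) or culture 2 (0.51), and when scaled by upper quartile (0.55), by library totals (0.54) or at equal depth (0.53). The demethylase gene *Kdm6b* had -0.54 (adjusted p = 0.0145), under 1.5-fold. It was called lower when AGX51 library 2 (-0.64) or 3, vehicle library 1 or 4, or culture 2 was left out. *Foxo3*, a FOXO factor that acts on *Cdkn1b* in other cells, had 0.58 (adjusted p = 0.00354), just under 1.5-fold (0.59 to 0.65 and called when AGX51 library 3 or 4, vehicle library 1, 2 or 3, or culture 1 or 3 was left out), with 41.9 to 65.8 CPM with AGX51 and 30.1 to 39.99 CPM with vehicle. *Trp53* had -0.28 (adjusted p = 0.106). The E-protein genes *Tcf3* (-0.38, adjusted p = 0.0077) and *Tcf4* (-0.47, adjusted p = 0.0156) were lower, also under 1.5-fold, and *Tcf12* had -0.06 (adjusted p = 0.634).

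Of 25 tested repressors of these genes, 0 were called higher and 4 lower (16%, against 18.3% of all genes, median -0.05). *Mycn*, at 7.35 ± 2.21 CPM with AGX51 and 19.1 ± 3.39 CPM with vehicle, fell most (-1.33, edgeR adjusted p = 0.000299). *Ezh2* (-0.77), the methyltransferase of the Polycomb complex that silences the *Cdkn2a* locus in dividing cells, fell, as did *Tbx3* (-0.72) and *Twist1* (-0.70), both known to repress *Cdkn2a* products. *Bmi1*, the Polycomb gene best known for holding down *Cdkn2a*, had 0.15 (adjusted p = 0.333). Transcripts of the inhibited ID proteins stayed within 1.5-fold, with *Id1* at 0.14 (edgeR adjusted p = 0.512) and *Id2* at 0.25 (adjusted p = 0.496). *Id3* (-0.39, adjusted p = 0.0068) and *Id4* (-0.32, adjusted p = 0.0321) were lower with AGX51 in 4 of 4 cultures. Their groups did not overlap, as with 17.9% of all genes in this direction. *Tbx2* was listed and too low to test. *Myc* had 0.57 (edgeR adjusted p = 0.03), just under 1.5-fold. It was called higher without AGX51 library 1 (0.67), AGX51 library 3 (0.70) or vehicle library 4 (0.70), with no count filter (0.59) and at equal depth (0.65). *Kdm2b* had -0.55 (adjusted p = 0.0023), also under 1.5-fold, and was called lower without AGX51 library 1 (-0.61) or culture 1 (-0.62).

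On the ARF-p53 axis, 2 of 16 tested genes were called higher and 0 lower (12.5%, against 18.3% of all genes, median 0.21). These were *Bbc3*, which encodes the death effector PUMA (12.99 ± 3.20 CPM with AGX51, 6.12 ± 1.03 CPM with vehicle, log2 fold change 1.146), and the kinase gene *Plk2* (0.73). *Mdm2*, a p53 target whose protein ARF binds, had -0.09 (edgeR adjusted p = 0.600), and *Ccng1*, another p53 target, had 0.06 (adjusted p = 0.867). Without both libraries of culture 4, *Sesn1* (0.60) and *Perp* (0.75) were called too, making 4 genes of this axis. *Sesn1*, *Sesn2* or *Perp* was also called without AGX51 library 1 or 4, vehicle library 3 or 4, or culture 1 or 3. With all libraries kept, *Perp* had 0.79 in the main fit (edgeR adjusted p = 0.0836). It was called higher by limma-voom (adjusted p = 0.0298), by DESeq2 (adjusted p = 0.00996), with culture as a block, and by edgeR without robust estimation (adjusted p = 0.0298).

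Of 12 tested genes that brake division by other routes, 4 were called higher and 2 lower (50%, against 18.3% of all genes, median 0.03). Earlier results of these data were known when this list was chosen, which can raise its share. *Gadd45a*, a growth arrest gene, was at 34.8, 39.7, 34.1 and 61.6 CPM with AGX51, against 13.4, 14.6, 14.9 and 13.5 CPM with vehicle, a log2 fold change of 1.69 (standard error 0.19, edgeR adjusted p = 3.94e-05). The antiproliferative genes *Btg1* (1.08) and *Btg3* (1.75) and the atypical cyclin gene *Ccng2* (0.85) rose too, although *Ccng2* was not called without culture 1 (0.60, adjusted p = 0.0642). *Gadd45g* (-0.92) and *Hexim1* (-1.14), an inhibitor of the CDK9 complex P-TEFb, fell. *Cdkn3* shares the name and is a phosphatase of CDKs, not an inhibitor of the INK4 or CIP/KIP families. It was at 9.61 ± 3.34 CPM with AGX51 and 20.3 ± 6.91 CPM with vehicle and fell by 1.05 on the log2 scale (adjusted p = 0.00993), the only one called of 5 genes with similar names.

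Genes whose log2 CPM followed *Cdkn1b* and *Cdkn2a* most closely over the 8 libraries were ranked among 13154 genes by Pearson correlation. Points share cultures and the treatment, so these are descriptions. For *Cdkn1b* the closest were *Fam168a* (r = 0.984), *Sfr1*, *Smpdl3a*, *Syngr1* and *Tmem203*, and for *Cdkn2a* they were *Rabac1* (r = 0.984), *Pla2g4a*, *Rhoc*, *Calr* and *Tuba1b*. With the group means removed, which leaves the differences between libraries of a group, *Cdkn1b* was nearest to *Ifnar2* (r = 0.978) and *Cdkn2a* to *Tmem59* (r = 0.991), *Srxn1*, *Sqstm1*, *Pdpn* and *Tfpi*. In that measure *Cdkn2a* also ran with *Cdkn2b* (r = 0.934, rank 192) and *Cdkn1a* (r = 0.863), and less with *Cdkn1b* (r = 0.234). Culture 4 was the highest library of both groups for *Cdkn1a*, *Cdkn2a* and *Cdkn2b*.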

How the data were processed

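Raw counts per gene were made by the authors with the RNAsik pipeline on GRCm38; the submitters' processing notes name STAR, Salmon, featureCounts, edgeR and limma. The deposited CPM values equal each count scaled to its library's total over the listed genes. The deposited log2 fold changes and p-value columns are the authors' limma-voom comparison in Degust and were not used. Whether counting used strand is not given in the sources used here.

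Counts were tested here in R 4.3.3 with edgeR 4.0.16 (filterByExpr, minimum count 10 and total 15; TMM; robust quasi-likelihood test), where 2739 genes were not tested. The script was tested on simulated data. Alternatives were other scalings and filters, equal depth, limma-voom (limma 3.58.1), DESeq2 1.42.0, a culture block, other fold thresholds, a fibroblast covariate, and libraries or cultures left out; the fits without robust estimation, the block without culture 4 and a pseudocount of 1 for *Cdkn2c* (0.5 otherwise) were added after the data were seen. A number stands for the same culture letter in both groups in the labels, so numbers pair the libraries; same-number libraries correlated at 0.113 to 0.444 after group means were removed, and others at -0.287 to 0.0951. Replicates are cultures from separate mice and differed by more than counting noise.

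Members and gene lists were chosen with earlier results of these data known. Named genes were all members, members of lists of 13 or fewer genes, up to 4 with the smallest adjusted p from longer lists plus those behind counts of 5 or fewer, the 5 genes most like *Cdkn1b* and *Cdkn2a*, and nearest neighbours; *Dusp16*, *Crebl2*, *Gpr19*, *Apold1*, *Mtap*, *Gm12603*, and list genes outside this rule, were named after their values were seen.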

Additional observations from a re-analysis of the deposited data

Results flagged for a closer look

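In 4 of 62 groups of 4 libraries, 1 library lay far from the other 3 by Dixon's criterion, and chance alone gives about 1 in 20 groups. For *Cdkn2a*, vehicle library 4 was at 56.3 CPM, while the other vehicle libraries were at 33.7 to 36.6 CPM. AGX51 library 4 was at 198 CPM and stayed just under the criterion (its gap was 0.825 of the group's range). For *Btg1*, AGX51 library 2 was at 78.8 CPM and the other AGX51 libraries at 131.2 to 133.0 CPM. For *Ccng2*, AGX51 library 1 was at 13.2 CPM and the others at 9.00 to 9.53 CPM. For *Cdkn3*, vehicle library 1 was at 30.7 CPM and the other vehicle libraries at 16.2 to 17.4 CPM.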

How the results depend on the processing

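*Cdkn1b* was called higher in 27 of 28 alternatives, the exception being a 2-fold threshold, at which its 0.93 is too small and 0 members are called. *Cdkn2a* was also called, making 2 members higher, with DESeq2 (1.35), limma-voom (1.14), limma-voom with a replicate block (1.195), without replicate 4 of both groups (0.87), the same with a block (0.84), without robust estimation (1.35) and without it but with a block (1.16). Leaving out 1 library at a time, log2 fold changes ranged from -0.26 to 0.086 for *Cdkn1a*, -0.23 to 0.062 for *Cdkn1c*, -0.35 to 0.074 for *Cdkn2b* and 0.39 to 0.65 for *Cdkn2d*, and members called higher from 1 to 2 (*Cdkn2d* joined without vehicle replicate 3). *Cdkn1a* also turned positive without replicate 2 (0.021) or 3 (0.034) of both groups and *Cdkn1c* without replicate 2 of both groups (0.095). Over all genes, 2191 were higher and 2222 lower with no fold threshold, and 479 and 622 at 2-fold. The causes were not tested. The replicate block of the edgeR fit changed no member's call. Low counts limit *Cdkn2c*.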
